A study of Mus musculus with 12 samples.

Results

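Potassium channel genes were taken as every row of the deposited expression table whose gene name starts with Kcn, which gave 94 of 44345 rows. They encode the pore subunits of voltage-gated, inward rectifier, tandem-pore and calcium- or sodium-activated potassium channels, and proteins that bind those pores. They were grouped by subfamily name. RNA was sequenced from L4 to L6 dorsal root ganglia (DRG), which hold the cell bodies of the sensory neurons of the sciatic nerve, of C57BL/6 mice aged 6 to 8 weeks. All mice were gavaged each day for 10 days, with PBS as vehicle or with 20 mg/kg of indole-3-propionic acid (IPA), a bacterial product of tryptophan in the gut, in PBS. Ganglia were collected with the nerve intact (groups vehicle and IPA) or after a crush of the sciatic nerve and 3 more days (crushed vehicle and crushed IPA). IPA went on over those 3 days, and the labels do not make clear whether vehicle gavage also did. Each of the 4 groups had 3 libraries and each library pooled the ganglia of 2 mice, so the 12 libraries hold separate pools, and neither sex nor batch is in the labels.

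Potassium channels let potassium leave the cell, which holds the resting potential near the potassium equilibrium and ends or spaces action potentials. In sensory neurons Kv pore subunits assemble as tetramers, tandem-pore subunits as dimers that leak at rest, and inward rectifiers conduct mainly at negative potentials. Auxiliary subunits alter how many pores reach the membrane and how they open. Loss of potassium current after damage to a peripheral nerve is a long-studied feature of sensory neurons, and satellite glia around them clear potassium through their own inward rectifiers.

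The libraries held 40938034 to 62501969 reads recovered from the deposited values, which are reads per gene scaled to library size with no division by gene length (CPM-like values, in which 1 read was worth 0.0130 to 0.0199). The transcription factor gene Atf3, switched on by nerve damage, rose from 11.2 ± 1.03 to 518 ± 7.40 (SD, n = 3) after crush under vehicle, in the direction the labels give. Neuronal markers were abundant in all libraries, and no marker of any cell type list was at 0 in all libraries of a group. The 3 vehicle libraries vehicle replicate 1, vehicle replicate 2 and crushed vehicle replicate 1 stood apart by a negative slope of log2 value on transcript GC content, of -0.087, -0.122 and -0.160 per 0.1 of GC, against -0.050 to 0.124 in the other libraries. Against its own group's mean, crushed IPA replicate 3 also had a negative slope (-0.099), steeper than vehicle replicates 1 (-0.018) and 2 (-0.053). Vehicle replicate 3 was at 0.072 on that measure. Leaving out the 3 vehicle libraries that stood apart leaves 1 intact vehicle library and 2 crushed vehicle libraries. In values given without them the lone library is thus assumed to vary like the other groups.

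On a scale that divides each value by the length of the longest annotated transcript, the family was led by auxiliary subunits. Kcnab2, the cytoplasmic beta subunit of Kv channels, had the highest level over the 12 libraries at 279 per kilobase, followed by the Kv pore Kcna1 at 107 and the calcium-binding subunit Kcnip3 at 85.1. Further members with high levels were the A-type pore Kcnd1 at 46.4, Kcnip4 at 43.8, the ERG pore Kcnh2 at 30.98, Kcnab1 at 28.8 and Kcnip2 at 26.97. Members at lower levels, such as the leak channel Kcnk1 (24.2), the sodium-activated channel Kcnt1 (23.7) and the silent subunit Kcns1 (23.6), lay closer together than the spread of their own libraries. Summed over the 93 members with an annotated length, the level per kilobase was 1216 ± 16.9 in vehicle, 1229 ± 13.2 in IPA, 836.5 ± 13.4 in crushed vehicle and 863.8 ± 36.1 in crushed IPA libraries (SD, n = 3). No crushed library reached an intact one in that sum. Auxiliary subunits held 45.3 ± 0.8004% of it in vehicle and 44.1 ± 0.166% in crushed vehicle libraries.

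**Figure D1:**
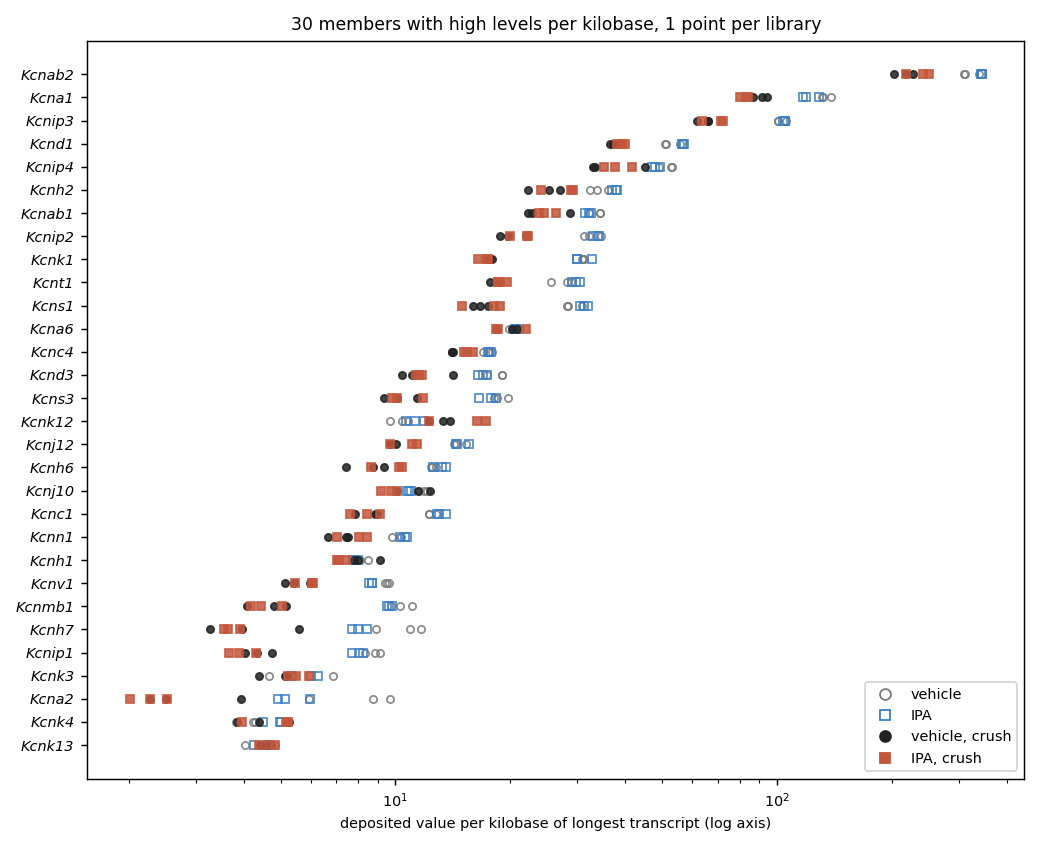
Deposited value per kilobase of longest transcript (log axis) for 30 members with high means, 1 point per library, open for intact and filled for crushed nerve. Kcnab2, Kcna1 and Kcnip3 lead, and for most members the filled points lie to the left of the open ones; for Kcnk12, for example, they do not.

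The first question was what a crush changes in vehicle mice. Of the 82 members with a value of at least 0.5 in at least 3 libraries, which was the condition for a test, 52 fell and 9 rose (limma, adjusted p under 0.05), while 21 did not pass. Falls took 63.4% of the tested members, against 24.4% of all 15603 tested genes, and rises took 11.0% against 23.6%. The median log2 change was -0.49 over the tested members and -0.00 over all tested genes. In 55 members every crushed library was lower than every intact vehicle library, and in 9 every one was higher, against 26.0% and 25.4% of all tested genes. Among the calls, 7 members fell by more than 2-fold on the log2(value + 0.5) scale, against 0.667% of all genes. Kcna2, Kcnb2, Kcng4, Kcnh5, Kcnh7 and Kcnmb1 were among them. On that scale 2 rose by more than 2-fold, Kcnk16 and Kcnh4, against 3.39%. Both met the condition for a test in crushed libraries only, so their place in this count partly follows from that condition. The added 0.5 shrinks the changes of low members. By edgeR on the recovered reads Kcnk9 (-1.39), Kcnn3 (-1.26), Kcng3 (-1.09) and Kcnk18 (-1.02) fell by more than 2-fold as well. The condition on low values matters for members that reach it in 1 nerve state only, so the count was also taken over the 75 members that reach it in at least 3 intact and at least 3 crushed libraries. There 50 fell and 7 rose, against 24.9% and 22.7% of the 14835 genes that met the same condition. Without the 3 vehicle libraries that stood apart, which sets 1 intact against 2 crushed libraries, 50 of the 82 fell and 6 rose, against 19.7% and 17.4% of all tested genes.

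Whole ganglia were measured, so fewer cells of a type and less RNA per cell cannot be told apart. Markers of neuron classes fell as well: 7 of 8 markers of large-diameter neurons fell and 1 rose, with a summed level of 3981 to 4160.3 in vehicle and 2805 to 3032 in crushed vehicle libraries. Of 8 nociceptor markers 6 fell and 2 rose, at a summed level of 3016 to 3143 against 2886 to 3117, and of 12 markers shared by sensory neurons 8 fell and 2 rose, at 12611 to 13548 against 12730.2 to 13611. All 8 macrophage markers rose, from a summed 37.5 to 45.4 to 134 to 142. Satellite glia markers went both ways (1 higher, 1 lower of 8; 729 to 796 against 930.5 to 976), led by a rise of Glul, glutamine synthetase. Myelinating Schwann cell markers were at 4992 to 5659 and 4764 to 5369.6 with 1 of 8 higher. Endothelial markers were at 57.1 to 61.5 and 64.1 to 72.3 with 1 of 5 higher, and pericyte and smooth muscle ones at 176 to 185 and 141 to 168 with 2 of 5 lower. Fibroblast markers were at 425 to 481 and 561 to 586 with 2 of 4 higher. Skeletal muscle markers ranged from 62.8 to 103 in vehicle and from 80.9 to 249.5 in crushed vehicle libraries with 0 of 6 called by limma. Of the 4 central glia and the 4 lymphocyte markers only 2 each were tested, of which 1 was called higher and 1 lower. Summed levels of the 2 lists were 8.54 to 10.1 and 3.77 to 6.27 in vehicle libraries. In crushed vehicle libraries they were 7.77 to 8.86 and 5.93 to 7.60. The part of any of these cell types in the channel results was not tested.

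**Figure D2:**
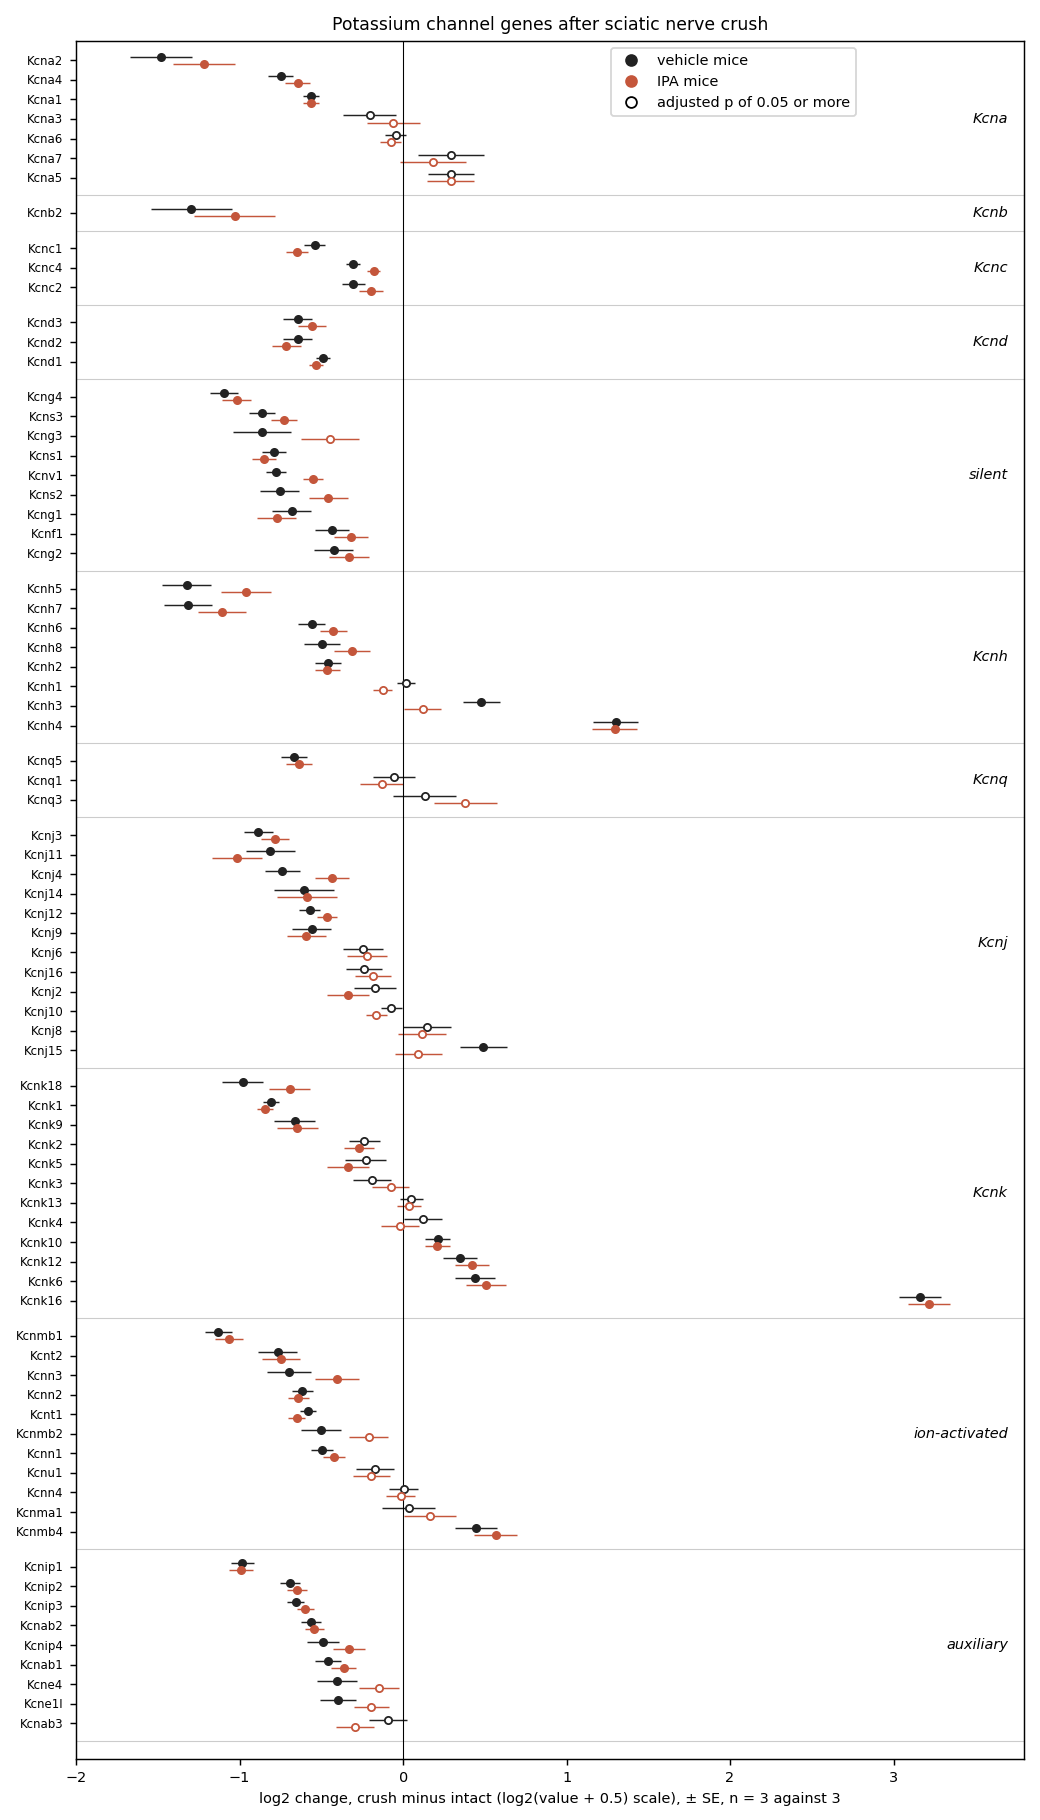
Change after crush for 78 tested members as crushed minus intact on the log2(value + 0.5) scale, with its standard error (n = 3 against 3 libraries), in vehicle mice (black) and IPA mice (red), by subfamily. Filled points passed an adjusted p under 0.05. Of the 78 members 49 lie below 0 and passed in vehicle mice; Kcnk16 at 3.16 and Kcnh4 at 1.30 stand alone at the right.

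The promoter windows of members that moved by more than 2-fold are shown for both risers and for 2 fallers. These are the steepest on the log2(value + 0.5) scale among the pores and among the other proteins that have a window. They let the upstream sequence of opposite responses be read side by side. Each window runs from 250 bases before to 50 bases after the gene's RefSeq start on GRCm38.p6, written on the gene's own strand. Capitals mark GC boxes (GGGCGG or CCGCCC). The Kcnk16 window lies wholly upstream of the gene coordinates given for it below, which come from GENCODE M21. The windows lie at chr14:20269220-20269519 (minus strand, 57.00% GC), chr11:100759729-100760028 (minus strand, 68.7% GC), chr3:107101317-107101616 (plus strand, 66.7% GC) and chr11:33962763-33963062 (plus strand, 49.7% GC).
Kcnk16: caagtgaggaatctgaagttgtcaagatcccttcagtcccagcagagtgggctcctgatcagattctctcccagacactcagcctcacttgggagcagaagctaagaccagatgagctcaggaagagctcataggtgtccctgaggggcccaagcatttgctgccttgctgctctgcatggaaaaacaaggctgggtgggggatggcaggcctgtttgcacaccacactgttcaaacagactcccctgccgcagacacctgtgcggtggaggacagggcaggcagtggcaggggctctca
Kcnh4: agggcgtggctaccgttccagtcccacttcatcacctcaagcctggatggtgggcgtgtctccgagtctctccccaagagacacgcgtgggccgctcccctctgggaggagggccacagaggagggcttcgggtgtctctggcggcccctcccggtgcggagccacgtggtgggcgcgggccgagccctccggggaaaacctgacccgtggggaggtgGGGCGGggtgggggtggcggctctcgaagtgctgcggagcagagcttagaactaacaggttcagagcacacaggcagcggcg
Kcna2: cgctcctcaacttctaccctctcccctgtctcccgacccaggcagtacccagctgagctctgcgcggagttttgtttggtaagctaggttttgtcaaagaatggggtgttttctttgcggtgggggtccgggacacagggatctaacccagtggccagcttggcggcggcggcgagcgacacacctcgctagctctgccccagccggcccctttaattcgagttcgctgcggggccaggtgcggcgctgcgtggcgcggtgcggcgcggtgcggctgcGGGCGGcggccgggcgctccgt
Kcnmb1: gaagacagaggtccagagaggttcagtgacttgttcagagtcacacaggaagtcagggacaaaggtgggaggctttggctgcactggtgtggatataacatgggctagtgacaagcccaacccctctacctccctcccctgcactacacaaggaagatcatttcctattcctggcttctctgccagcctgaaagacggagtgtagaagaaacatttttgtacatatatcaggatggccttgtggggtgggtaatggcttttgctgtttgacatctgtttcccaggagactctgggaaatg

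Across the 94 windows of the 69 members that had any, the AP-1 letters TGANTCA stood in 4 (Kcne3, Kcnip3, Kcnip4 and Kcnk2), or 4.26%, against 7.81% of all 32851 windows, and the cyclic AMP response letters TGACGTCA in 0, against 1.79%. A GC box stood in 45 member windows, or 47.9%, against 35.7% of all. The median GC content was 58.0% in member windows and 52.7% in all, and the search read both strands, with no motif contained in another. Neither Kcnk16 nor Kcnmb1 held any of these letters in its window, while Kcnh4 and Kcna2 each held 1 GC box; Kcng4 held none, Kcnh5 held 1 and Kcnh7 held 4. A match of letters is a description and not a binding site.

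Kcna (Shaker) pores give the low-threshold, slowly inactivating current that sets firing threshold, and Kcna1 with Kcna2 sits beside the nodes of Ranvier of myelinated axons. Kcna1, Kcna2 and Kcna4 fell in vehicle mice and the other 4 of the 7 tested members did not pass, with a subfamily median of -0.21. For this and each later subfamily, 24.4% of all tested genes fell and 23.6% rose in vehicle mice. In IPA mice 22.5% of all tested genes fell and 21.2% rose. Kcna1, on chromosome 6 at 126640397 to 126646384 of mm10 (minus strand), read 532, 558 and 531 in vehicle and 473, 481 and 519 in IPA libraries. After crush Kcna1 read 380.0, 349 and 369 in vehicle and 334, 338 and 323 in IPA libraries. The crushed libraries were all below the intact ones, with a log2 change of -0.56 ± 0.05 in vehicle mice (adjusted p = 4.97e-07) and -0.56 ± 0.05 in IPA mice. Kcna2 read 101, 112 and 68.9 in vehicle and 59.4, 56.9 and 69.1 in IPA libraries. After crush Kcna2 read 45.5, 26.4 and 29.04 in vehicle and 29.1, 26.4 and 23.3 in IPA libraries. It had the largest fall of the members, with a log2 change of -1.48 ± 0.19 (adjusted p = 2.28e-05). Vehicle replicate 3 stood well below its group and crushed vehicle replicate 1 above its own. In IPA mice the change was -1.22 ± 0.19, and without the 3 vehicle libraries that stood apart it was -1.30 in vehicle mice. Kcna4, the inactivating pore found in unmyelinated nociceptors, read 22.4, 20.2 and 21.7 in vehicle and 19.6, 20.2 and 19.9 in IPA libraries. After crush Kcna4 read 14.04, 11.9 and 11.8 in vehicle and 11.6, 12.8 and 13.3 in IPA libraries. It fell, with a log2 change of -0.75 ± 0.08 in vehicle and -0.64 ± 0.08 in IPA mice, with no overlap of intact and crushed libraries. Kcna6, the highest of the subfamily per kilobase after Kcna1, read 116, 118 and 124 in vehicle and 120.2, 121 and 121 in IPA libraries. After crush Kcna6 read 118, 121 and 108 in vehicle and 107, 109 and 128 in IPA libraries. Its intact and crushed libraries overlapped throughout, and the change was -0.05 ± 0.07 with a 95% interval of -0.19 to 0.10. Of its exonic bases 39.6% are shared with the antisense gene Gm26673, whose reads can be told apart only if counting used strand, which is not given in the sources used here. Kcna5 (1.47 ± 0.192 in vehicle, 1.93 ± 0.413 in crushed vehicle), Kcna3 (0.581 ± 0.225 and 0.426 ± 0.0807) and Kcna7 (0.360 ± 0.131 and 0.564 ± 0.256) were low and did not pass.

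Kcnb pores carry much of the delayed rectifier current that repolarises the cell body, and the silent subunits (Kcnf, Kcng, Kcns and Kcnv) form no channel alone but join Kcnb pores and shift their gating. Kcnb2 fell, and so did all 9 tested silent subunits in vehicle mice and 8 of the 9 in IPA mice, with a median of -0.78 over the silent subunits under vehicle. Kcnb2 read 14.6, 15.6 and 8.80 in vehicle and 8.97, 7.32 and 9.41 in IPA libraries. After crush Kcnb2 read 7.82, 3.30 and 4.34 in vehicle and 3.98, 4.51 and 3.35 in IPA libraries. Its vehicle libraries spread widely, from 8.80 to 15.6, and its log2 change of -1.30 ± 0.25 in vehicle mice had the largest standard error of the calls. It was -1.03 ± 0.25 in IPA mice, where the intact libraries were close together. Kcns1, the silent subunit with the highest level per kilobase, read 76.4, 76.7 and 83.6 in vehicle and 84.7, 82.8 and 86.9 in IPA libraries. After crush Kcns1 read 43.3, 45.3 and 47.5 in vehicle and 51.02, 49.1 and 40.6 in IPA libraries. Its log2 change was -0.79 ± 0.07 in vehicle (adjusted p = 1.06e-06) and -0.85 ± 0.07 in IPA mice, with no overlap. Kcns3 read 54.1, 57.9 and 53.1 in vehicle and 52.1, 48.6 and 53.8 in IPA libraries. After crush Kcns3 read 33.4, 27.3 and 29.6 in vehicle and 28.6, 29.7 and 34.6 in IPA libraries. Kcng4, the steepest faller of the silent subunits at a log2 change of -1.09 ± 0.09, read 22.1, 22.1 and 22.7 in vehicle and 20.3, 20.9 and 22.2 in IPA libraries. After crush Kcng4 read 9.89, 10.2 and 10.4 in vehicle and 10.9, 11.3 and 8.51 in IPA libraries. In both Kcns3 (log2 change -0.86 ± 0.08) and Kcng4, every crushed library was below every intact one. Kcnv1 had a log2 change of -0.78 ± 0.06 in vehicle and -0.55 ± 0.06 in IPA mice, Kcng3 had -0.86 ± 0.18 in vehicle mice, and -0.45 ± 0.18 and an adjusted p of 0.0539 in IPA mice, and Kcng1, Kcng2, Kcns2 and Kcnf1 had changes of -0.76 to -0.42 in vehicle mice. Kcnv2 was below the filter at 0.0385, 0.0190 and 0.0165 in vehicle and 0.139, 0.218 and 0.140 in crushed vehicle libraries, which rest on 1 to 2 and 7 to 12 reads.

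Kcnc pores open at high threshold and allow fast firing, and Kcnd pores carry the A-type current that delays the next spike. Kcnc1, Kcnc2, Kcnc4 and all 3 Kcnd pores fell after crush in vehicle mice and in IPA mice, with a median of -0.65 over the Kcnd pores under vehicle. Kcnc1 read 95.1, 95.02 and 99.3 in vehicle and 99.5, 101 and 105 in IPA libraries. After crush Kcnc1 read 60.7, 69.2 and 68.7 in vehicle and 70.9, 65.3 and 58.9 in IPA libraries, a change of -0.54 ± 0.07 in vehicle and -0.65 ± 0.07 in IPA mice. Kcnc4, an inactivating pore of nociceptors, read 65.7, 62.1 and 64.6 in vehicle and 63.9, 64.5 and 65.2 in IPA libraries. After crush Kcnc4 read 51.9, 51.5 and 51.7 in vehicle and 58.5, 56.6 and 55.5 in IPA libraries. Its log2 change was smaller than that of Kcnc1, -0.31 ± 0.04 in vehicle and -0.18 ± 0.04 in IPA mice, though its replicates were so close that intact and crushed libraries did not overlap. Kcnc2 had a log2 change of -0.30 ± 0.07 in vehicle and -0.20 ± 0.07 in IPA mice, where its groups overlapped. Kcnd1, the highest of the Kcnd pores per kilobase and X-linked, read 270.0, 269.7 and 294 in vehicle and 302, 299 and 299 in IPA libraries. After crush Kcnd1 read 193, 202 and 197 in vehicle and 211, 208 and 202 in IPA libraries. Its log2 change was -0.49 ± 0.04 in vehicle (adjusted p = 5.84e-07) and -0.54 ± 0.04 in IPA mice, with all crushed libraries below all intact ones. Kcnd3 read 136, 137 and 124 in vehicle and 125, 118 and 121 in IPA libraries. After crush Kcnd3 read 102, 74.6 and 79.1 in vehicle and 82.5, 80.9 and 83.9 in IPA libraries, with crushed vehicle replicate 1 above the rest of its group and a change of -0.65 ± 0.09. Kcnd2, the Kcnd pore with the lowest level per kilobase at 0.308, read 2.00, 2.10 and 2.30 in vehicle and 1.97, 2.02 and 2.02 in IPA libraries. After crush Kcnd2 read 1.21, 1.18 and 1.16 in vehicle and 0.952, 1.01 and 1.13 in IPA libraries, and changed by -0.65 ± 0.09 in vehicle and -0.71 ± 0.09 in IPA mice.

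Kcnh pores comprise the EAG pair (Kcnh1, Kcnh5), the ERG pores (Kcnh2, Kcnh6, Kcnh7) and the ELK pores (Kcnh8, Kcnh3, Kcnh4), and they moved in both directions. All 3 ERG pores, Kcnh5 and Kcnh8 fell in vehicle mice, Kcnh3 and Kcnh4 rose, and Kcnh1 did not pass. Kcnh2, the ERG pore with the highest level per kilobase, read 143, 137 and 152 in vehicle and 159, 156 and 161 in IPA libraries. After crush Kcnh2 read 94.1, 106 and 114 in vehicle and 123, 122 and 102 in IPA libraries. Its change was -0.46 ± 0.08 in vehicle (adjusted p = 0.000264) and -0.46 ± 0.08 in IPA mice, without overlap. Kcnh7 read 146, 156 and 119 in vehicle and 106, 102 and 112 in IPA libraries. After crush Kcnh7 read 74.6, 43.6 and 52.7 in vehicle and 48.6, 52.2 and 47.3 in IPA libraries. Kcnh5 read 6.96, 8.46 and 5.36 in vehicle and 4.57, 4.36 and 5.12 in IPA libraries. After crush Kcnh5 read 2.96, 2.03 and 2.34 in vehicle and 1.85, 2.32 and 2.33 in IPA libraries. Both fell steeply, with log2 changes of -1.32 ± 0.15 and -1.32 ± 0.15 in vehicle and -1.11 ± 0.15 and -0.96 ± 0.15 in IPA mice. In both, vehicle libraries 1 and 2 and crushed vehicle library 1 were the high ones of their groups. Without those 3 the changes in vehicle mice were -1.30 and -1.13. Kcnh6 had a log2 change of -0.56 ± 0.08 and Kcnh8 one of -0.50 ± 0.11 in vehicle mice. Kcnh4 read 0.231, 0.152 and 0.0827 in vehicle and 0.205, 0.121 and 0.0427 in IPA libraries. After crush Kcnh4 read 0.915, 1.20 and 1.23 in vehicle and 1.16, 1.08 and 0.836 in IPA libraries, which are 5 to 12 reads in vehicle and 46 to 88 reads in crushed vehicle libraries. Every crushed library exceeded every intact one, at 1.30 ± 0.14 (adjusted p = 3.58e-06) and 1.29 ± 0.14 in IPA mice. The added 0.5 shrinks such low values, and edgeR on the recovered reads gave 2.87 and 3.09. Kcnh3 rose from 1.98 ± 0.0894 to 2.98 ± 0.557 in vehicle mice (0.48 ± 0.11) and stood at 2.38 ± 0.128 and 2.63 ± 0.223 in IPA mice, where it did not pass (0.12 ± 0.11). Kcnh1 was at 59.3 ± 1.85 and 60.1 ± 5.19 in intact and crushed vehicle libraries, a change of 0.02 ± 0.06.

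Kcnq3 and Kcnq5 contribute to the M-current, which opens below spike threshold and restrains repetitive firing. Kcnq5 fell in both treatments, and Kcnq3 and Kcnq1 did not pass. Kcnq3 read 10.02, 11.1 and 6.25 in vehicle and 5.64, 5.45 and 6.23 in IPA libraries. After crush Kcnq3 read 13.4, 7.81 and 8.82 in vehicle and 8.02, 7.58 and 7.38 in IPA libraries. The vehicle groups overlapped over a wide range, with a log2 change of 0.13 ± 0.19, while in IPA mice all crushed libraries exceeded the intact ones at 0.38 ± 0.19 (adjusted p = 0.126). Kcnq5 read 28.5, 30.5 and 28.6 in vehicle and 27.3, 26.4 and 27.2 in IPA libraries. After crush Kcnq5 read 21.1, 15.9 and 17.8 in vehicle and 17.00, 17.7 and 16.8 in IPA libraries, a log2 change of -0.67 ± 0.08 in vehicle (adjusted p = 1.16e-05) and -0.64 ± 0.08 in IPA mice. Kcnq1, a pore of heart and epithelia, stood at 1.09 ± 0.218 and 1.02 ± 0.134.

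**Figure D3:**
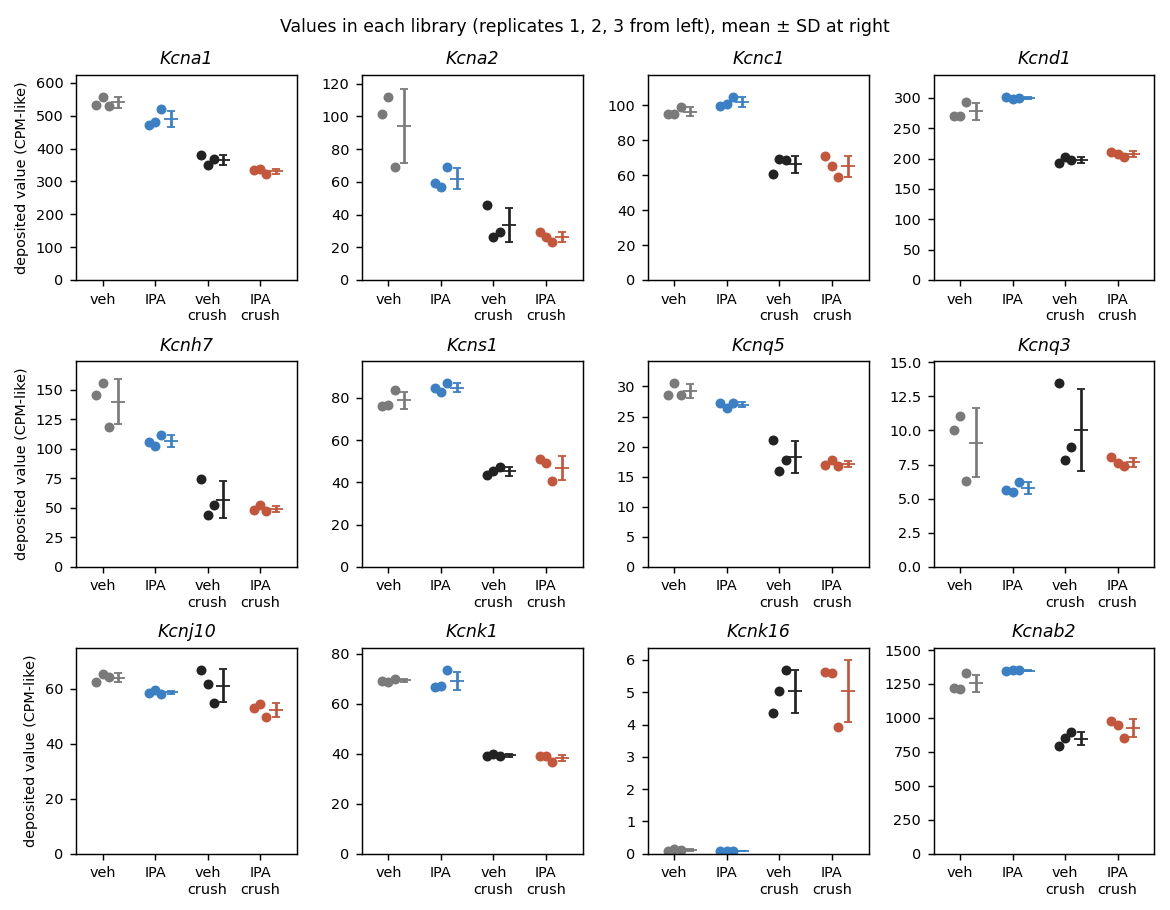
Deposited CPM-like values of 12 members in each library (points, replicates 1 to 3 from left) with the group mean and SD (n = 3) at the right of each group, from vehicle to IPA, crushed vehicle and crushed IPA. Kcna1, Kcnc1, Kcnd1, Kcns1, Kcnk1 and Kcnab2 separate by nerve state, Kcnk16 rises from near 0, and Kcna2, Kcnh7 and Kcnq3 spread widely among vehicle libraries.

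Inward rectifiers (Kcnj) include the pores of strong rectifiers (Kcnj2, Kcnj4, Kcnj12, Kcnj14), the G protein-gated GIRK pores (Kcnj3, Kcnj5, Kcnj6, Kcnj9), the ATP-sensitive pores (Kcnj8, Kcnj11), and the glial pore Kcnj10 with its partner Kcnj16. Of 12 tested, 6 fell in vehicle mice, 1 rose and 5 did not pass. Kcnj3 read 20.5, 21.4 and 19.3 in vehicle and 17.9, 17.3 and 19.6 in IPA libraries. After crush Kcnj3 read 12.03, 10.3 and 10.2 in vehicle and 9.49, 10.2 and 11.6 in IPA libraries. Its log2 change was -0.89 ± 0.09 in vehicle (adjusted p = 1.7e-06) and -0.78 ± 0.09 in IPA mice with no overlap, and 31.1% of its exonic bases are shared with Gm26794 on the opposite strand. Kcnj9 had a log2 change of -0.56 ± 0.12, Kcnj6 did not pass at -0.25 ± 0.12, and Kcnj5 was below the filter. Kcnj12, the highest of the subfamily per kilobase, read 35.1, 35.6 and 37.7 in vehicle and 35.5, 38.4 and 35.7 in IPA libraries. After crush Kcnj12 read 24.6, 23.8 and 23.9 in vehicle and 28.1, 27.2 and 23.8 in IPA libraries, a log2 change of -0.57 ± 0.06 in vehicle and -0.47 ± 0.06 in IPA mice. Kcnj11 read 4.62, 4.70 and 5.28 in vehicle and 5.01, 5.12 and 5.65 in IPA libraries. After crush Kcnj11 read 2.39, 2.58 and 2.71 in vehicle and 3.40, 2.04 and 1.82 in IPA libraries, a log2 change of -0.81 ± 0.15 and -1.02 ± 0.15, while Kcnj8, the ATP-sensitive pore of vessels, stood at 1.03 ± 0.295 and 1.18 ± 0.258. Kcnj4 had a log2 change of -0.74 ± 0.11 and Kcnj14 one of -0.61 ± 0.18 in vehicle mice. Kcnj10, which clears potassium in satellite glia, read 62.3, 65.4 and 64.3 in vehicle and 58.5, 59.3 and 57.9 in IPA libraries. After crush Kcnj10 read 66.7, 61.8 and 54.6 in vehicle and 52.8, 54.5 and 49.5 in IPA libraries. Intact and crushed vehicle libraries overlapped and the change was -0.07 ± 0.06, with a 95% interval of -0.21 to 0.06. For IPA mice it was -0.16 ± 0.06 with an adjusted p of 0.0506. Kcnj16 read 4.10, 4.02 and 3.57 in vehicle and 4.10, 3.53 and 3.69 in IPA libraries. After crush Kcnj16 read 3.62, 3.27 and 2.83 in vehicle and 3.75, 3.20 and 2.85 in IPA libraries, and its change of -0.24 ± 0.11 did not pass (adjusted p = 0.0892). Kcnj15 rose in vehicle mice from 0.540 ± 0.0258 to 0.973 ± 0.245 (0.49 ± 0.14), and without crushed vehicle replicate 1, its highest library, the adjusted p was 0.0502. Kcnj2 had -0.17 ± 0.13 in vehicle mice, where it did not pass, and -0.34 ± 0.13 in IPA mice with an adjusted p of 0.0476.

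Tandem-pore channels (Kcnk) were the subfamily with most rises: of 12 tested, Kcnk6, Kcnk10, Kcnk12 and Kcnk16 rose, Kcnk1, Kcnk9 and Kcnk18 fell and 5 did not pass in vehicle mice. These shares, 33.3% higher and 25% lower, stand against 23.6% and 24.4% of all tested genes. The calls of Kcnk6, Kcnk10 and Kcnk12 did not hold in every fit with libraries left out, as given below. Kcnk16, a TALK channel best known from pancreatic islets, lies on chromosome 14 at 20261376 to 20269199 of mm10 (minus strand) and read 0.0963, 0.133 and 0.116 in vehicle and 0.0945, 0.0906 and 0.0854 in IPA libraries. After crush Kcnk16 read 4.36, 5.05 and 5.68 in vehicle and 5.62, 5.58 and 3.93 in IPA libraries. These were 5 to 7 reads in each intact library and 216 to 431 in the crushed ones, a gap far wider than the spread in any group. The change was 3.16 ± 0.13 in vehicle mice (adjusted p = 2.2e-10) and 3.22 ± 0.13 in IPA mice on the log2(value + 0.5) scale, and 5.44 and 5.80 by edgeR on the recovered reads. Kcnk5, a related pH-sensitive leak channel on the same chromosome, did not pass in vehicle mice at -0.23 ± 0.13. Kcnk12, a THIK subunit, rose from 20.3 ± 1.13 to 25.9 ± 1.71 in vehicle (0.35 ± 0.10) and from 22.2 ± 1.22 to 30.2 ± 5.24 in IPA mice (0.42 ± 0.10). Its relative Kcnk13, known from microglia, had 0.05 ± 0.07 with a 95% interval of -0.11 to 0.21. Kcnk10 (TREK family) rose with a log2 change of 0.21 ± 0.08 with an adjusted p of 0.0341, and the call was lost without any of 5 libraries, while Kcnk6 (TWIK family) rose with a log2 change of 0.44 ± 0.12.

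Kcnk1, a TWIK subunit and the tandem-pore gene with the highest level per kilobase, read 69.3, 68.8 and 69.8 in vehicle and 66.8, 66.97 and 73.4 in IPA libraries. After crush Kcnk1 read 38.9, 39.97 and 39.2 in vehicle and 39.02, 38.9 and 36.8 in IPA libraries. The vehicle and crushed vehicle replicates lay very close together, and the log2 change of -0.81 ± 0.05 in vehicle mice had the smallest adjusted p of the falling members (1.08e-08). In IPA mice it was -0.84 ± 0.05. Kcnk18 (TRESK), a background channel of nociceptors, read 13.2, 14.96 and 13.1 in vehicle and 13.3, 10.8 and 11.6 in IPA libraries. After crush Kcnk18 read 8.37, 6.17 and 5.86 in vehicle and 7.59, 7.65 and 6.24 in IPA libraries, a log2 change of -0.98 ± 0.12 and -0.69 ± 0.12. Kcnk2 (TREK family), a mechanosensitive and heat-sensitive channel, read 13.2, 12.1 and 15.95 in vehicle and 14.1, 14.6 and 13.1 in IPA libraries. After crush Kcnk2 read 11.9, 10.7 and 12.01 in vehicle and 10.8, 11.3 and 12.4 in IPA libraries. All crushed vehicle libraries were below the intact vehicle ones, yet the change of -0.24 ± 0.09 missed the threshold (adjusted p = 0.0518) and in IPA mice -0.27 ± 0.09 passed it; 12.2% of its exonic bases are shared with A430027H14Rik. Kcnk9 (TASK family) had a log2 change of -0.66 ± 0.12 from low levels of 0.867, 0.853 and 0.546 in vehicle libraries. By edgeR on the recovered reads the change of Kcnk9 in vehicle mice was -1.39. Kcnk3 (TASK family) and Kcnk4 (TRAAK), whose exons share 13.2% of their bases with Catsperz on the same strand, changed by -0.19 ± 0.12 and 0.12 ± 0.12 and did not pass.

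Among channels opened by calcium or sodium, 7 of 11 tested genes fell in vehicle mice, 1 rose and 3 did not pass. Kcnt1, the pore of the sodium-activated Slack channel and the highest here per kilobase, read 187, 192 and 170.1 in vehicle and 197, 202 and 193 in IPA libraries. After crush Kcnt1 read 117, 125 and 124 in vehicle and 124, 129.8 and 123 in IPA libraries. Its log2 change was -0.58 ± 0.05 in vehicle (adjusted p = 5.19e-07) and -0.65 ± 0.05 in IPA mice, without overlap. Its paralogue Kcnt2 read 8.34, 9.82 and 7.25 in vehicle and 7.75, 7.32 and 7.91 in IPA libraries. After crush Kcnt2 read 5.61, 3.94 and 4.79 in vehicle and 4.26, 4.42 and 4.38 in IPA libraries, also without overlap, a log2 change of -0.77 ± 0.12 and -0.75 ± 0.12. The small-conductance pores, which give an afterhyperpolarisation, also fell: Kcnn1 with a log2 change of -0.49 ± 0.07, Kcnn2 with -0.62 ± 0.06 and Kcnn3, at a low level, with -0.70 ± 0.13. By edgeR on the recovered reads the change of Kcnn3 in vehicle mice was -1.26. Kcnn1 read 41.7, 39.7 and 41.9 in vehicle and 43.4, 42.8 and 41.6 in IPA libraries. After crush Kcnn1 read 30.02, 30.3 and 26.9 in vehicle and 33.99, 32.4 and 28.5 in IPA libraries, without overlap. Kcnn4, the intermediate-conductance pore, read 12.6, 11.9 and 13.2 in vehicle and 13.6, 15.3 and 12.97 in IPA libraries. After crush Kcnn4 read 11.3, 13.7 and 13.05 in vehicle and 14.8, 14.1 and 12.5 in IPA libraries. Its libraries were interleaved, with a log2 change of 0.00 ± 0.09 and a 95% interval of -0.19 to 0.20. Kcnma1, the pore of the large-conductance BK channel, read 20.4, 22.4 and 14.6 in vehicle and 14.97, 13.00 and 14.02 in IPA libraries. After crush Kcnma1 read 25.3, 16.6 and 17.1 in vehicle and 17.3, 15.7 and 14.3 in IPA libraries. Vehicle replicate 3 was the low library of intact vehicle and crushed vehicle replicate 1 the high library of its group, and the change of 0.03 ± 0.16 had a 95% interval of -0.31 to 0.38. The BK beta subunits moved in opposite directions: Kcnmb1, on chromosome 11 at 33963013 to 33973641 (plus strand), read 43.2, 46.2 and 40.7 in vehicle and 39.8, 41.05 and 40.2 in IPA libraries. After crush Kcnmb1 read 21.6, 20.1 and 17.1 in vehicle and 17.5, 18.6 and 21.2 in IPA libraries, a log2 change of -1.13 ± 0.08 in vehicle (adjusted p = 1.25e-07) and -1.06 ± 0.08 in IPA mice. Kcnmb2 had a log2 change of -0.50 ± 0.12 in vehicle mice, while Kcnmb4, the neuronal beta subunit, rose from 0.841 ± 0.235 to 1.32 ± 0.191 (0.45 ± 0.13) and in IPA mice by 0.57 ± 0.13. Part of the Kcnmb4 exons is shared with the antisense genes Kcnmb4os1 (10.7%) and Kcnmb4os2 (20.9%). Kcnu1, known from sperm, had -0.17 ± 0.11 and did not pass.

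Auxiliary proteins fell with the pores: in vehicle mice 8 of 9 tested passed as lower and 0 as higher, and in IPA mice 6 were lower. Kcnab2, an aldo-keto reductase-like beta subunit that binds Kcna pores, read 1218, 1215 and 1328 in vehicle and 1345, 1349 and 1351 in IPA libraries. After crush Kcnab2 read 795, 855 and 893 in vehicle and 980.1, 946 and 855 in IPA libraries. The crushed libraries were all below the intact ones, with a log2 change of -0.57 ± 0.06 in vehicle (adjusted p = 3.78e-06) and -0.54 ± 0.06 in IPA mice. Kcnab1 read 150.2, 151 and 141 in vehicle and 143, 137 and 141 in IPA libraries. After crush Kcnab1 read 126, 99.6 and 97.5 in vehicle and 104, 108 and 116 in IPA libraries, with a smaller gap between nerve states and a log2 change of -0.46 ± 0.08. Kcnab3 did not pass at -0.09 ± 0.12. The Kcnip proteins bind Kcnd pores, and all 4 fell. Kcnip3, which also acts as the transcriptional repressor DREAM, read 274, 274 and 288 in vehicle and 286, 283 and 287 in IPA libraries. After crush Kcnip3 read 181, 169 and 180.1 in vehicle and 197, 195 and 174 in IPA libraries, and changed by -0.66 ± 0.05 (adjusted p = 1.81e-07) and -0.60 ± 0.05. Kcnip1, whose gene on chromosome 11 at 33629339 to 33993152 (minus strand) encloses Kcnmb1 on the other strand, read 36.2, 37.2 and 34.2 in vehicle and 31.5, 32.9 and 33.6 in IPA libraries. After crush Kcnip1 read 19.4, 17.8 and 16.5 in vehicle and 15.01, 15.96 and 17.7 in IPA libraries. Its log2 change was -0.98 ± 0.07 in vehicle and -0.99 ± 0.07 in IPA mice, close in size to Kcnmb1, with which no shared exonic bases were found in the annotation. Kcnip2 read 97.2, 100.3 and 107 in vehicle and 106, 106 and 102 in IPA libraries. After crush Kcnip2 read 68.5, 61.5 and 58.4 in vehicle and 69.1, 68.7 and 62.3 in IPA libraries, a log2 change of -0.69 ± 0.06, and Kcnip4 had a log2 change of -0.49 ± 0.10. Kcne4 and Kcne1l, small single-span subunits, fell in vehicle mice from 1.93 ± 0.185 and 1.54 ± 0.0809 to 1.34 ± 0.172 and 1.06 ± 0.178 and did not pass in IPA mice.

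In all, 12 members did not reach the filter and were not tested, namely Kcna10, Kcnv2, Kcnj1, Kcnj5, Kcnj13, Kcnk7, Kcnk15, Kcnmb3, Kcne1, Kcne2, Kcne3 and Kcnrg. Kcnj5, a GIRK pore known from atrium, was at 0, 0 and 0.0496 in vehicle and 0.159, 0.109 and 0.237 in crushed vehicle libraries, which are 0 to 3 and 6 to 17 reads. Kcnj1 and Kcne1 had at most 2 reads in any library, and Kcne3 was the highest of these members per kilobase at 0.266. Of the members that were tested, 7 reached the filter in fewer than 3 libraries of 1 nerve state: Kcnh4, Kcnk16 and Kcna7 in the intact and Kcnk9, Kcnn3, Kcnj6 and Kcna3 in the crushed nerve. A call for such a member partly follows from the filter. With no filter, Kcnj5 was called higher in vehicle mice (0.37, adjusted p = 0.00145) and IPA mice (0.37, adjusted p = 0.00172), and so was Kcnv2 (0.34, adjusted p = 0.000718, and 0.17, adjusted p = 0.0428).

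Leaving out each library in turn ended 7 of the 61 calls in vehicle mice, among them those of Kcnk10 above and of Kcnk12, Kcnmb4, Kcnj15, Kcnj14 and Kcne4. Kcnk12 was at 0.31 with an adjusted p of 0.0543 without vehicle replicate 2 and 0.0528 without crushed vehicle replicate 3. Kcnmb4 was at 0.32 with an adjusted p of 0.0508 without vehicle replicate 3. The falls of Kcnj14 (-0.51 without vehicle replicate 3, -0.49 without crushed vehicle replicate 2) and Kcne4 (-0.35 without vehicle replicate 2 or crushed vehicle replicate 3) ended in the same way, with adjusted p-values of 0.0568, 0.0656, 0.0586 and 0.0579. In IPA mice the calls of Kcnc2, Kcnf1, Kcng2, Kcnh8, Kcnip4, Kcnj2, Kcnj14, Kcnk2, Kcnk5, Kcnk10 and Kcnn3 ended without at least 1 library, and the lowest of their adjusted p-values was 0.0501, for Kcng2 without vehicle replicate 1, and the highest 0.2045, for Kcnj2 without IPA replicate 2. Of the rises, those of Kcnh4, Kcnk16 and Kcnk6 passed in both treatments whichever library was left out, and so did that of Kcnh3 in vehicle mice. Without the 3 vehicle libraries that stood apart, with 1 intact library left, 8 of the 61 calls in vehicle mice were lost. The rises among them were Kcnk6 (log2 change 0.40, adjusted p = 0.0862), Kcnk12 (0.33, adjusted p = 0.120), Kcnj15 (0.37, adjusted p = 0.181) and Kcnk10 (0.23, adjusted p = 0.155). The falls were Kcne1l (-0.40, adjusted p = 0.0796), Kcne4 (-0.37, adjusted p = 0.131), Kcnh8 (-0.38, adjusted p = 0.05001) and Kcnj14 (-0.79, adjusted p = 0.0514), and in IPA mice the call of Kcnj2 was lost (-0.34, adjusted p = 0.0634).

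The second question was whether the crush acted alike in mice given IPA. In IPA mice 51 members fell and 6 rose of 82, against 22.5% and 21.2% of all tested genes, and over the 75 members at the filter in both nerve states 49 fell and 4 rose, against 23.0% and 20.3%. The median log2 change over members was -0.40. In 55 members every crushed IPA library was lower than every intact IPA library, and in 8 every one was higher, against 30.8% and 27.2% of all tested genes. On the log2(value + 0.5) scale, falls of more than 2-fold were called for 7 members, against 0.487% of all genes. Kcnj11 stood in place of Kcnh5 among those named for vehicle mice. By edgeR on the recovered reads Kcnk9 (-1.25) and Kcnh5 (-1.10) fell by more than 2-fold as well. Rises of more than 2-fold were again called for Kcnk16 and Kcnh4, against 2.97%, both tested through their crushed libraries. The libraries of IPA mice are separate from the vehicle ones, but both contrasts share 1 estimate of each gene's spread, so their calls are not independent. In both treatments 48 members fell, which is 92.3% of the vehicle falls and 94.1% of the IPA falls. Over all genes those shares were 79.7% and 86.4%. The 6 members that rose in both were Kcnh4, Kcnk6, Kcnk10, Kcnk12, Kcnk16 and Kcnmb4, or 66.7% of the vehicle rises and 100% of the IPA rises, against 80.8% and 90.1% over all genes, and no member was called in opposite directions. Kcnh3 and Kcnj15 were among those that passed as higher in vehicle mice alone, and Kcne1l, Kcne4, Kcng3 and Kcnmb2 passed as lower in vehicle mice alone and Kcnj2, Kcnk2 and Kcnk5 as lower in IPA mice alone. The test of the difference itself, the interaction, called 0 of 82 members by limma, by edgeR and by DESeq2, against 0.00% of all genes by limma and edgeR and 0.0192% by DESeq2. By limma 3 members had an unadjusted p under 0.05, against 2.10% of all genes. Those were Kcnv1 (0.23 ± 0.09), Kcnh3 (-0.36 ± 0.16) and Kcnc4 (0.13 ± 0.06), all with an adjusted p of 1.00, and the next smallest was Kcnj4 (0.30 ± 0.15). For 64 of the 82 members the 95% interval of the interaction lay within 1.5-fold either way. For the others, Kcna2 among them at -0.32 to 0.84 on the log2 scale, the interval does not exclude a larger difference.

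The third question was what IPA changed within each nerve state. With the nerve intact, limma and edgeR called 0 of 82 members, against 0.00% of all genes, and DESeq2 called 0, against 0.0192%. By limma 17 members had an unadjusted p under 0.05, against 12.2% of all genes, of which 13 were lower with IPA. The smallest p-values belonged to Kcnh5 (-0.50 ± 0.15), Kcna2 (-0.58 ± 0.19), Kcnq3 (-0.58 ± 0.19) and Kcna1 (-0.14 ± 0.05), each with an adjusted p of 0.408. For Kcna2, Kcnq3 and Kcnh5 the vehicle mean was carried by replicates 1 and 2, and without these and crushed vehicle replicate 1, against the 1 remaining intact vehicle library, the differences were -0.16, -0.11 and -0.18, while Kcna1 was at -0.11. With each library's trend on GC content and length removed, the 4 differences were -0.45 for Kcna2, -0.44 for Kcnq3, -0.50 for Kcnh5 and -0.15 for Kcna1.

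With the nerve crushed, limma and edgeR again called 0 of 82, and so did DESeq2, which called 0.0961% of all genes. There were 10 members at an unadjusted limma p under 0.05 (background 8.06%). Kcnj4 (0.41 ± 0.11), Kcnh1 (-0.20 ± 0.06), Kcnj10 (-0.22 ± 0.06) and Kcnc4 (0.14 ± 0.04) had the smallest, each with an adjusted p of 0.578. Kcnj4 read 3.34, 3.27 and 4.20 in crushed vehicle and 5.14, 5.10 and 4.51 in crushed IPA libraries, which did not overlap, and 5.84, 5.88 and 7.33 and 6.74, 6.91 and 6.79 in the intact groups, which did. Averaged over both nerve states, limma and edgeR called 0, against 0.00% of all genes. An unadjusted limma p under 0.05 was found for 24 members, against 20.2% of all genes, and 14 of them were lower with IPA. Kcna1 (-0.14 ± 0.03), Kcnj10 (-0.17 ± 0.05), Kcnn2 (0.17 ± 0.05) and Kcng2 (0.31 ± 0.08) led, each with an adjusted p of 0.157 by limma. DESeq2 on the recovered reads called 6 members in this contrast, Kcna1, Kcnj10, Kcnq3 and Kcnma1 as lower and Kcng2 and Kcnn2 as higher, against 2.34% of all genes. Kcna1 was lower in IPA than in vehicle libraries in both nerve states without overlap, at 540.3 ± 15.6 against 491 ± 24.7 with the nerve intact and 366 ± 15.7 against 331 ± 7.73 crushed. Its averaged difference was -0.11 without the 3 vehicle libraries. Kcnj10 went from -0.17 ± 0.05 to -0.14. Kcnq3 and Kcnma1, whose averaged differences were -0.46 ± 0.14 and -0.35 ± 0.11, were at -0.11 and -0.08 without them. The 95% interval lay within 1.5-fold either way for 73 of 82 members in each nerve state and for 78 in the averaged contrast.

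**Figure D4:**
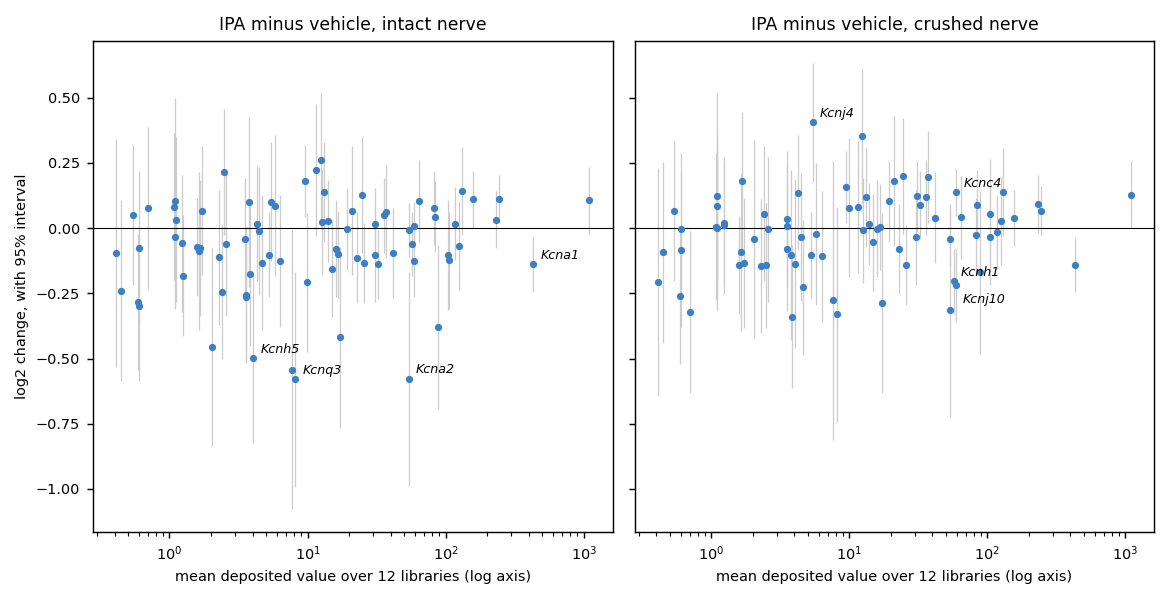
Difference between IPA and vehicle libraries on the log2(value + 0.5) scale with its 95% interval (n = 3 against 3) for 78 tested members, against the mean deposited value (log axis), with the nerve intact (left) and crushed (right). No member passed an adjusted p under 0.05; the 4 members with the smallest p in each panel are named, and the widest intervals at left belong to members such as Kcnq3 and Kcna2 that spread among vehicle libraries.

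Genes whose products bind or control these channels were read from lists chosen with earlier results of these data known. Of 28 tested partners of the channels, 19 fell and 7 rose in vehicle mice, with a median log2 change of -0.36, and 18 fell and 6 rose in IPA mice. Over all tested genes 24.4% fell and 23.6% rose in vehicle mice, and 22.5% and 21.2% in IPA mice. The share of rises among the partners was thus near that of all genes. Only partners that fell are named here. Lgi3, a secreted partner of Kcna channels, fell from 177 ± 6.63 to 80.8 ± 7.20, a log2 change of -1.13 ± 0.06. Dpp10 and Dpp6, transmembrane partners of Kcnd pores, fell with log2 changes of -1.34 ± 0.09 and -0.47 ± 0.04, and Cntnap2, which gathers Kcna1 and Kcna2 beside the node, with -0.73 ± 0.07. Of HCN genes, whose current depolarises the cell near rest, Hcn2 fell with -0.56 ± 0.08 while Hcn4 (-0.18 ± 0.11) and Hcn3 (0.08 ± 0.07) did not pass. Another list held 10 genes of transcriptional repressors and chromatin enzymes, several of which act on potassium channel genes in rodent sensory neurons. Of these 2 rose and 2 fell in vehicle mice, near the 23.6% and 24.4% of all tested genes. Their part in the channel results was not tested. Rest rose from 5.50 ± 0.493 to 7.69 ± 0.475 (0.45 ± 0.08) and Ezh2 rose with 0.52 ± 0.11. Dnmt3a (-0.25 ± 0.06) and Rcor1 (-0.20 ± 0.05) fell, and 6 did not pass. IPA called 0 genes of these 3 lists in either nerve state by limma.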

How the data were processed

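RNA of 12 libraries (4 groups of 3, each a pool of 2 mice) was sequenced as poly(A) directional libraries. The authors deposited 1 table of normalised values, named FPKM, whose values behave as CPM: they are not divided by gene length, and every value was a whole multiple of what 1 read is worth in its library (100% within a tolerance of 1e-06), so whole reads were recovered. Per the submitters' processing notes, the build was mm10, with FastQC 0.10.1 and STAR 2.7.0, and in R 3.5.0 the packages limma 3.38.3 and edgeR 3.24.3, with no role given. The sources used here do not give the counter, annotation or use of strand.

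Values were taken as log2(value + 0.5), a scale that understates the change of low genes. Genes at 0.5 or more in at least 3 libraries (15603) entered 1 limma-trend fit (limma 3.58.1, R 4.3.3) of all 12 libraries with 8 residual degrees of freedom, and Benjamini-Hochberg adjustment ran over all tested genes, with a threshold of 0.05. Contrasts were crush within each treatment, IPA within each nerve state and averaged over both, and the interaction. Errors of log2 changes are standard errors and those of levels are SDs (n = 3). Depths of 40938034 to 62501969 reads leave counting error small beside replicate spread for genes of many reads only. For low members it can be as large as that spread or larger. An example is Kcnd2, with 61, 65 and 83 reads in crushed vehicle libraries. P-values measure the spread between pools.

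The members and lists were chosen with earlier results of these data known. Values in every library were given for the 2 largest changes in vehicle mice per subfamily with a mean of at least 1, the highest member per kilobase and a fixed list, and for contrasts with few calls the 4 smallest p-values were named; Kcna6, Kcnh4, Kcnj4 and Kcnj5 were added after their values were seen. A few members and listed genes are not reported here by name or in the figures, though counts include them. Lengths and GC content came from GENCODE M21, which covers 97.9% of tested genes but not Kcnb2. The alternatives were edgeR 4.0.16 and DESeq2 1.42.0 on recovered reads (edgeR called 7493 genes after crush in vehicle mice and 6936 in IPA mice), other scalings, filters and pseudocounts, removal of GC and length trends, each library left out, a replicate block and, chosen after seeing the data, 3 libraries left out. The limma fit was also run on counts simulated from the spread of these libraries, without GC or length trends. The outcome is not given, and no result here rests on it.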

Additional observations from a re-analysis of the deposited data

How the results depend on the processing

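After crush, the members called higher and lower numbered 8 and 53 in vehicle mice and 6 and 50 in IPA mice by edgeR, 7 and 53 and 6 and 52 by DESeq2, and 9 and 54 and 8 and 53 with GC and length trends removed. Over all genes edgeR called 24.4% higher and 23.6% lower in vehicle and 22.9% and 21.5% in IPA mice, DESeq2 24.0% and 24.3%, and 23.3% and 21.8%. With GC and length trends removed the falls over all genes rose to 31.8% in vehicle and 30.3% in IPA mice, from 24.4% and 22.5%, and the rises were 23.4% and 22.3%. Leaving out each library in turn gave 6 to 9 higher and 51 to 56 lower in vehicle mice. Over all tested genes the shares were 19.7% to 26.1% and 20.6% to 27.2%. In IPA mice it gave 5 to 7 higher and 45 to 55 lower, against 17.5% to 23.4% and 18.4% to 25.5%. Across all alternatives 51 of the 61 calls in vehicle mice and 46 of the 57 in IPA mice were never lost where tested. None of the called changes after crush reversed. DESeq2 called 6 members for IPA averaged over nerve states where limma called 0; the cause was not tested. With no filter, 0 members were left untested, by construction. Members called higher and lower then numbered 9 and 52 in vehicle mice, against 13.3% and 12.2% of all 29233 tested genes. In IPA mice they numbered 7 and 43, against 11.5% and 11.1%. The member calls include rises of Kcnj5 and Kcnv2 in both treatments. In this fit 9 of the IPA calls were lost, those of Kcnc2, Kcnf1, Kcng2, Kcnh8, Kcnj2, Kcnj14, Kcnk2, Kcnk5 and Kcnk10. Same-number correlations of deviations from group means were -0.252 to 0.286. Pairs of different numbers were not compared, so these values cannot decide whether replicate numbers pair the samples. A replicate block gave 7 higher and 53 lower in vehicle mice, against 22.7% and 23.5% of all tested genes. In IPA mice it gave 5 higher and 51 lower, against 20.2% and 21.5%. It gave 0 for each IPA contrast, as it did over all tested genes. With 3 pools a group, small differences and members of a few reads are beyond the precision of these data.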
